A study of Homo sapiens with 8 samples.

Results

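Keratins are the intermediate filament proteins of epithelial cells, and 10 keratin genes were followed in RNA from 2 established human lung cancer lines, NCI-H1944 and NCI-H647. The 10 genes, KRT5, KRT6A, KRT7, KRT8, KRT14, KRT17, KRT18, KRT19, KRT80 and KRT81, were taken by gene symbol from the 46427 genes listed for NCI-H1944 and the 61271 listed for NCI-H647, and each symbol was listed once. Of the 10, 8 had enough reads to be tested in NCI-H1944 and 8 in NCI-H647, and 7 were tested in both lines.

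The MPS1i groups of each line received 100 nM BAY-1217389 for 48 h, and were then kept for 24 h after the drug was washed out. BAY-1217389 blocks MPS1, the kinase encoded by TTK, a part of the checkpoint that delays the separation of chromosomes in mitosis. The DMSO groups of each line received the solvent on the same schedule. All 4 groups were of genotype WT, as labelled, were grown in RPMI medium with fetal bovine serum, penicillin-streptomycin and plasmocin, and had 2 libraries each. Whether the 2 replicates of a group were grown as separate cultures is not stated, so the p-values rest on a spread between libraries that may be technical only. The question addressed is how gene expression differs after a pulse of MPS1 inhibition.

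Keratins form filaments only as pairs of a type I (acidic) and a type II (neutral or basic) chain, and an unpaired chain is normally degraded. KRT8 (type II) and KRT18 (type I) are the first pair made in simple epithelia, and KRT7 and KRT19 are added to it in ductal, glandular and airway cells. KRT5 and KRT14 are the pair of basal cells in stratified epithelia, KRT6A and KRT17 are induced when an epithelium is wounded or stressed, and KRT81 is a type II keratin of the hair shaft. In lung cancer, KRT7, KRT8, KRT18 and KRT19 are usual in adenocarcinoma, whereas KRT5, KRT6A and KRT14 are used as markers of squamous carcinoma.

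Keratin genes lie in 2 clusters and arose by duplication, so that neighbouring copies share long stretches of sequence. In the coordinates of the NCI-H647 table, whose build is GRCh38 per the submitters' processing notes, KRT80, KRT7, KRT81, KRT6A, KRT5, KRT8 and KRT18 stand in this order on chromosome 12, and KRT19, KRT14 and KRT17 on chromosome 17. The coding stretches below show where KRT17 and KRT14 differ most, since reads shared between them matter for the results on both. They are the 120 coding bases with the most differences within 1 exon, read from GENCODE release 29 transcripts (GRCh38), and capitals mark the bases that differ. KRT17 lies at chr17:41624085-41624204 on the minus strand (coding bases 306 to 425) and KRT14 at chr17:41586317-41586436 on the minus strand (coding bases 399 to 518), with 28 differences.
KRT17: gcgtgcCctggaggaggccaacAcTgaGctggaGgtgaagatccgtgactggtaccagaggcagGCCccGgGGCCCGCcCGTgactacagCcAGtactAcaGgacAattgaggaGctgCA
KRT14: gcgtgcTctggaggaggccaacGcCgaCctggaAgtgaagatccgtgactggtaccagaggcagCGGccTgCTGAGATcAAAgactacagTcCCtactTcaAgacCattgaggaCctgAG
Over the whole coding sequence, KRT81 and KRT86 were identical at 90.1% of aligned bases, with a longest identical run of 605 bases. KRT17 and KRT14 were identical at 78.0%, with a longest run of 59 bases. KRT6A was closer still to KRT6B (97.5%, longest run 269 bases) and KRT6C (97.9%, longest run 349 bases). KRT8 and KRT7 shared 66.5%, and KRT18 and KRT19 shared 57.6%.

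Library totals were 43067647 to 43661342 counts after MPS1i and 38904473 to 39332931 with DMSO in NCI-H1944, and 13358514 to 13563037 after MPS1i and 17243487 to 19550859 with DMSO in NCI-H647, so low genes are measured less precisely in NCI-H647. NCI-H1944 libraries came from a poly(A) kit and NCI-H647 libraries from ribosomal RNA removal, so levels in the lines cannot be told apart from the kits and are not compared. In NCI-H1944 the epithelial markers CDH1 (E-cadherin) and EPCAM had 1304 to 1688 and 75 to 129 counts per library. In NCI-H647 EPCAM had 60 to 94 counts, and CDH1 had 3 to 9, too few to be tested. In the NCI-H1944 table fewer genes stood at 1 count (706 to 764 per library) than at 2 counts (838 to 1000), whereas in the NCI-H647 table more stood at 1 (2976 to 3425) than at 2 (1381 to 1521), and the NCI-H1944 values may have been filtered or derived differently. A gene without counts is therefore called listed at 0, and the floors and limits given for NCI-H1944 hold only if its zeros are counting zeros. TTK was called lower after MPS1i in both lines, by 0.71 ± 0.08 on the log2 scale (SE) in NCI-H1944 and by 0.72 ± 0.04 in NCI-H647.

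At baseline a different keratin led in each line. Levels between genes were ordered as CPM (read counts scaled to library size) per kilobase of transcript in the DMSO libraries. In NCI-H1944 the order was KRT8 (1306 ± 3.05, SD, n = 2), KRT18 (1013 ± 0.350), KRT7 (177 ± 0.710), KRT17 (109 ± 3.38), KRT80 (71.4 ± 0.274), KRT81 (6.19 ± 0.0367) and KRT6A (0.226 ± 0.149), and no neighbours in this order overlapped. KRT8 made up 48.7% and KRT18 37.8% of the summed level of the 10 genes. KRT5, KRT14 and KRT19 were listed at 0, where a floor of 3 counts over the 2 DMSO libraries is 0.0382 CPM.

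**Figure D1:**
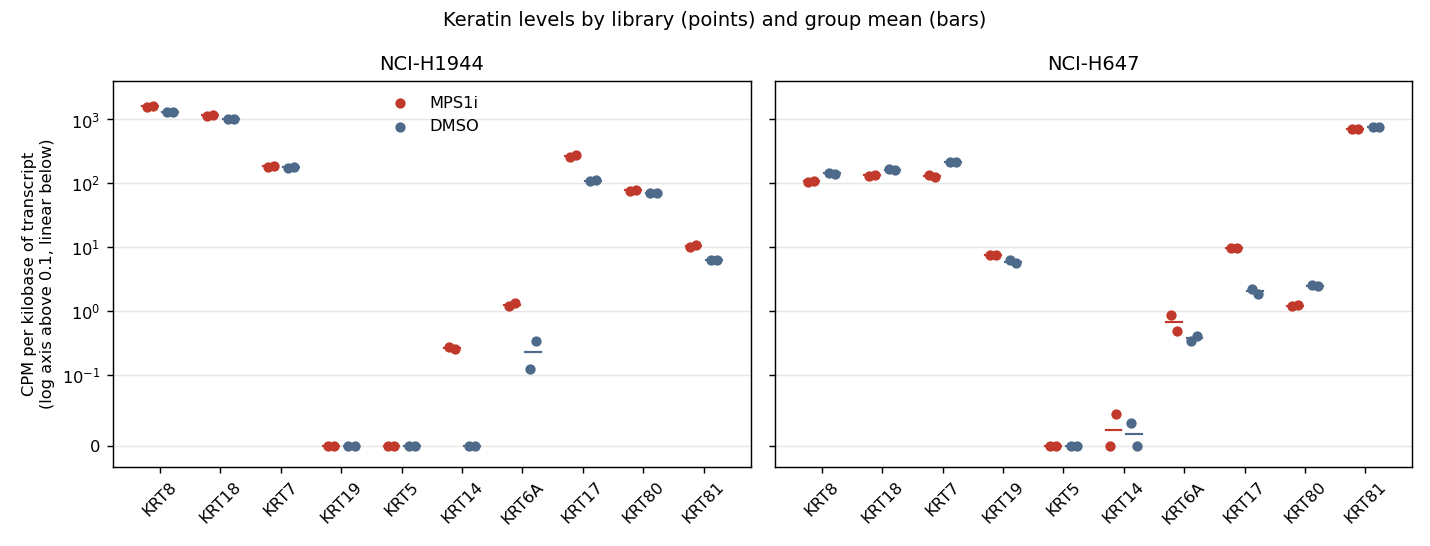
Level of each keratin in CPM per kilobase of transcript (vertical axis, log above 0.1 and linear below) in each library (points), with group means (bars), MPS1i in red left of DMSO in blue. KRT8 and KRT18 lead in NCI-H1944 and KRT81 leads in NCI-H647, and KRT17 is higher after MPS1i in both lines.

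In NCI-H647 the order with DMSO was KRT81 (759 ± 6.46 CPM per kilobase), KRT7 (214 ± 0.292), KRT18 (164 ± 6.81), KRT8 (142 ± 2.16), KRT19 (5.87 ± 0.448), KRT80 (2.48 ± 0.0692), KRT17 (2.03 ± 0.237), KRT6A (0.374 ± 0.0493) and KRT14 (0.0157 ± 0.0222, from 1 count in all), and neighbours did not overlap. KRT5 was listed at 0. The hair keratin KRT81 made up 58.8% of the summed level of the 10 genes and KRT7 16.6%. By coding length in place of transcript length, an ordering chosen after seeing the data, KRT80 stood above KRT17 in NCI-H1944 and above KRT19 in NCI-H647, and the other places were the same.

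After MPS1i the 10 keratins took up more of the library in NCI-H1944 and less in NCI-H647. The 10 genes held 0.545% and 0.562% of counts after MPS1i, against 0.455% and 0.458% with DMSO, in NCI-H1944. In NCI-H647 they held 0.204% and 0.202% after MPS1i, against 0.233% and 0.230% with DMSO. The groups did not overlap in either line, and with 2 libraries a group the two-sided exact permutation p was 0.333, the smallest this design allows. In bulk RNA, fewer cells that make a keratin and less keratin RNA per cell cannot be told apart.

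Across genes the keratins were called by edgeR's quasi-likelihood test at a Benjamini-Hochberg adjusted p under 0.05 over all genes tested. In NCI-H1944, 7 of the 8 tested keratins rose, 0 fell and 1 was not called, where 26.0% of all 16738 genes tested were called, 13.6% higher and 12.4% lower. At an unadjusted p under 0.05, 8 were higher and 0 lower, and DESeq2 called 6 higher and 0 lower and gave KRT14 no adjusted p. The median log2 fold change of the 8 was 0.52, against 0.00111 over all genes. KRT14 (20 and 18 counts after MPS1i, 0 and 0 with DMSO) passed the low-count filter through its MPS1i libraries alone. It could therefore not be called lower, and it counts in the 7 and in the median. At a minimum count of 50, which left KRT14 out, 6 were higher and 0 lower. In NCI-H647, 2 of 8 rose, 5 fell and 1 was not called, where 54.4% of all 15049 genes tested were called, 27.3% higher and 27.0% lower. The median was -0.21 there, against 0.00537 over all genes. All 8 tested keratins had both MPS1i libraries above both DMSO libraries in NCI-H1944, as 30.5% of all genes did. KRT14 is 1 of these 8 and, kept by the filter through its MPS1i libraries alone, could not lie below. In NCI-H647 3 keratins were above (38.4% of all genes) and 5 below (37.9%).

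**Figure D2:**
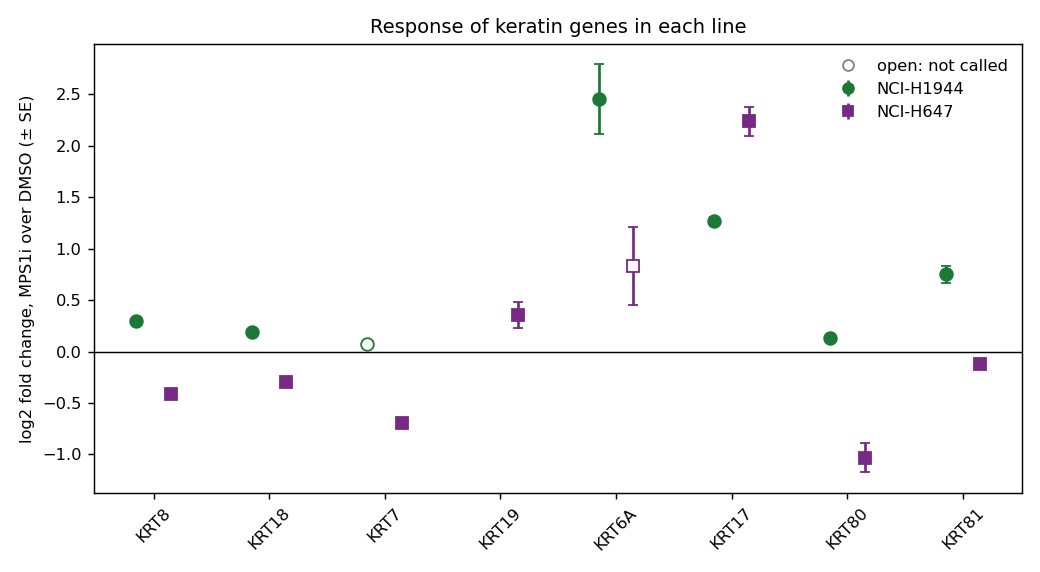
Log2 fold change of MPS1i over DMSO (points, bars are SE) for the keratins tested, with NCI-H1944 as circles and NCI-H647 as squares, filled where called. KRT8, KRT18, KRT80 and KRT81 are above 0 in NCI-H1944 and below 0 in NCI-H647, and KRT17 is above 0 in both. KRT14 and KRT5 are not drawn.

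KRT8, the type II chain of simple epithelia (chr12:52897187-52949954, minus strand), rose in NCI-H1944 and fell in NCI-H647. In NCI-H1944 it had 2664 and 2735 CPM after MPS1i, against 2199 and 2206 CPM with DMSO. Both MPS1i libraries were above both DMSO libraries, a log2 fold change of 0.29 ± 0.02 (SE) or 1.23-fold (edgeR adjusted p = 2.27e-09). In NCI-H647 it had 178 and 183 CPM after MPS1i, against 243 and 238 CPM with DMSO. The groups were again apart, in the other direction, with a log2 fold change of -0.41 ± 0.04 (edgeR adjusted p = 4.49e-07).

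KRT18, its type I partner (chr12:52948871-52952906, plus strand), moved the same way as KRT8 in each line. It had 1769 and 1842 CPM after MPS1i, against 1583 and 1582 CPM with DMSO, in NCI-H1944. That was a log2 fold change of 0.19 ± 0.02 (edgeR adjusted p = 3.91e-06), with no overlap between the groups. In NCI-H647 it had 206 and 212 CPM after MPS1i, against 264 and 249 CPM with DMSO. The fall was -0.30 ± 0.04 on the log2 scale (edgeR adjusted p = 1.95e-05), also without overlap. KRT8 and KRT18 overlap by 1084 bases on opposite strands, and the strand setting of the counting is not given in the sources used here. Counts of the processed pseudogenes of KRT8 came to 0.371% of its own counts in NCI-H1944 and 2.66% in NCI-H647, and those of KRT18 to 0.0793% in NCI-H1944 and 0.514% in NCI-H647.

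KRT7, a type II keratin of glandular and ductal cells (chr12:52232520-52252186, plus strand), had 320 and 332 CPM after MPS1i, against 309 and 311 CPM with DMSO, in NCI-H1944. The MPS1i libraries were slightly higher, but the difference of 0.07 ± 0.03 on the log2 scale was not called (edgeR adjusted p = 0.103). Without MPS1i replicate 1 it was called, at 0.10 (edgeR adjusted p = 0.0487). In NCI-H647 KRT7 had 240 and 224 CPM after MPS1i, against 376 and 375 CPM with DMSO. It fell by 0.70 ± 0.04 on the log2 scale, 1.62-fold lower (edgeR adjusted p = 1.06e-09), and the groups were far apart.

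KRT19, the smallest type I keratin, which lacks the tail domain of the others (chr17:41523617-41528308, minus strand), was listed at 0 in all 4 NCI-H1944 libraries. In NCI-H647 it had 10.3 and 10.6 CPM after MPS1i, against 8.61 and 7.73 CPM with DMSO. Both MPS1i libraries were higher, and the rise of 0.35 ± 0.13 on the log2 scale was called (edgeR adjusted p = 0.0265). The call was lost in 5 of 9 alternatives, among them DESeq2 (adjusted p = 0.355), no low-count filter (0.0708), and leaving out DMSO replicate 2 (0.131), MPS1i replicate 1 (0.0692) or MPS1i replicate 2 (0.112).

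KRT17, a type I keratin of wounded and stressed epithelium (chr17:41619442-41624842, minus strand), rose in both lines. In NCI-H1944 it had 387 and 413 CPM after MPS1i, against 162 and 170 CPM with DMSO. Every MPS1i library was far above every DMSO library, 2.41-fold on average (log2 fold change 1.27 ± 0.04, edgeR adjusted p = 1.06e-13). In NCI-H647 KRT17 had 14.7 and 14.5 CPM after MPS1i, against 3.34 and 2.83 CPM with DMSO. That was 4.71-fold higher (log2 fold change 2.24 ± 0.14, edgeR adjusted p = 5.08e-09). A rise of at least 2-fold was called for 3.11% of genes in NCI-H1944 and 5.60% in NCI-H647. In the order of levels per length KRT17 stood 3rd after MPS1i in NCI-H1944, above KRT7 (264 and 186 CPM per kilobase), where it was 4th with DMSO. It stood 5th after MPS1i in NCI-H647 (9.65 CPM per kilobase), where it was 7th with DMSO.

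KRT6A, a type II keratin induced beside KRT16 and KRT17 in wounds (chr12:52487176-52493257, minus strand), was scarce in both lines. In NCI-H1944 it had 118 and 130 counts after MPS1i, against 11 and 30 counts with DMSO. The MPS1i libraries were both higher, 5.47-fold (log2 fold change 2.45 ± 0.34, edgeR adjusted p = 4.23e-05), and the DMSO libraries differed between themselves. Without DMSO replicate 1 the log2 fold change was 1.90 and without DMSO replicate 2 it was 3.35, both called. Its near copies had few counts there, with 3 and 6 for KRT6B and 8 and 9 for KRT6C after MPS1i, against 2 and 0 for each with DMSO. In NCI-H647 KRT6A had 27 and 15 counts after MPS1i, against 15 and 16 counts in the larger DMSO libraries. That was 0.83 ± 0.38 on the log2 scale and not called (edgeR adjusted p = 0.0757), and the value moved with the library left out. Without MPS1i replicate 1 it was 0.35 (edgeR adjusted p = 0.617), and without MPS1i replicate 2 it was 1.17 and called (edgeR adjusted p = 0.0484).

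KRT14, the type I keratin of basal cells (chr17:41582279-41586895, minus strand), had 20 and 18 counts after MPS1i in NCI-H1944 and was listed at 0 in both DMSO libraries. Set against the floor of 3 counts over the DMSO group (0.0382 CPM), which covers counting error only, it was at least 11.5-fold higher. It was called by edgeR's test of the counts themselves (adjusted p = 8.89e-04), which does not test that bound. Its counts were 0.110% of those of the similar KRT17 after MPS1i, and a count of 0 with DMSO allows up to 0.0230%. How reads shared between KRT17 and KRT14 were assigned was not tested. In NCI-H647 KRT14 had 0 and 1 counts after MPS1i and 1 and 0 with DMSO, too few to test. KRT5, the type II partner of KRT14 in basal cells (chr12:52514575-52520530, minus strand), was listed at 0 in all 8 libraries. The floor of 3 counts over a group is 0.0347 CPM after MPS1i and 0.0382 CPM with DMSO in NCI-H1944, and 0.110 CPM after MPS1i and 0.0829 CPM with DMSO in NCI-H647.

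KRT80, a type II keratin found in many epithelia (chr12:52168996-52192014, minus strand), rose little in NCI-H1944 and fell in NCI-H647. It had 297 and 305 CPM after MPS1i, against 275 and 276 CPM with DMSO, in NCI-H1944. The groups were apart, by 1.09-fold (log2 fold change 0.13 ± 0.03, edgeR adjusted p = 0.00565). In NCI-H647 it had 4.57 and 4.80 CPM after MPS1i, against 9.75 and 9.38 CPM with DMSO. It fell by 1.03 ± 0.15 on the log2 scale, 2.04-fold lower (edgeR adjusted p = 2.43e-05), and a fall of at least 2-fold was called for 2.19% of genes in that line.

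KRT81, the hair keratin (chr12:52285913-52291534, minus strand), rose in NCI-H1944, where it is a minor keratin, and fell slightly in NCI-H647, where it leads. In NCI-H1944 it had 19.6 and 20.5 CPM after MPS1i, against 11.9 and 11.98 CPM with DMSO. The groups were well apart, 1.68-fold (log2 fold change 0.75 ± 0.08, edgeR adjusted p = 4.17e-06). In NCI-H647 KRT81 had 1354 and 1344 CPM after MPS1i, against 1474 and 1456 CPM with DMSO. The fall was -0.12 ± 0.03 on the log2 scale (edgeR adjusted p = 0.00174), small but without overlap.

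Its near copy KRT86 had 175 and 156 counts after MPS1i, against 116 and 95 with DMSO, in NCI-H1944. That difference of 0.51 ± 0.19 on the log2 scale was not called (edgeR adjusted p = 0.0536). In NCI-H647 KRT86 had 828 and 822 counts after MPS1i, against 1291 and 1007 with DMSO, and was not called either (log2 fold change -0.07 ± 0.06, edgeR adjusted p = 0.343). KRT81 lies wholly within the KRT86 gene on the opposite strand in the NCI-H647 table, an overlap of 5622 bases, and KRT7 overlaps KRT86 by 2887 bases on the same strand. How reads shared between the copies were assigned was not tested.

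The type II level was above the type I level in every library of both lines. Summed over all keratin genes with counts (30 in NCI-H1944 and 21 in NCI-H647), per kilobase of transcript, the ratio of type II to type I was 1.32 and 1.30 after MPS1i, against 1.38 and 1.38 with DMSO, in NCI-H1944. In NCI-H647 it was 5.94 and 5.75 after MPS1i, against 6.07 and 6.34 with DMSO, and without KRT81 it was 1.66 and 1.59 after MPS1i, against 2.06 and 2.14 with DMSO. The ratio of KRT8 to KRT18 was higher after MPS1i in NCI-H1944 (1.39 and 1.37, against 1.29 and 1.29 with DMSO) and lower in NCI-H647 (0.803 and 0.801, against 0.851 and 0.883 with DMSO). KRT17 supplied 18.2% and 18.6% of the type I level after MPS1i, against 9.42% and 9.80% with DMSO, in NCI-H1944. In NCI-H647 it supplied 5.91% and 5.72% after MPS1i, against 1.15% and 1.04% with DMSO. None of these groups overlapped, and each two-sided exact permutation p was 0.333, the smallest possible.

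**Figure D3:**
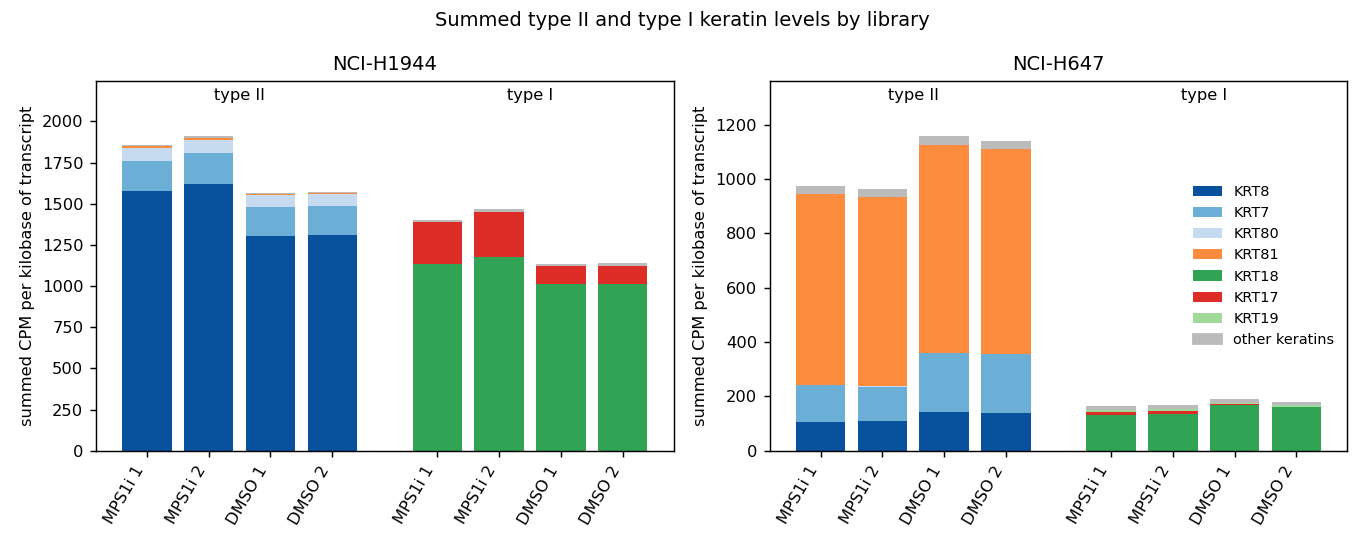
Summed keratin level per library (vertical axis, CPM per kilobase of transcript) for type II and type I genes, split by gene, with MPS1i libraries left of DMSO libraries. KRT81 fills most of the type II level in NCI-H647, and KRT17 takes a larger part of the type I level after MPS1i in NCI-H1944.

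The difference between the lines was tested itself, as the response in NCI-H1944 minus that in NCI-H647 in a joint fit over 12887 genes. Of the 7 keratins tested in both lines, 6 had a higher response in NCI-H1944 and KRT17 a lower one, where 40.1% of genes were called, 22.7% higher and 17.4% lower, and the median over all genes was 0.0364. The difference was 0.79 ± 0.05 on the log2 scale (SE) for KRT7 (edgeR adjusted p = 9.14e-12), although KRT7 was not called in NCI-H1944 alone. For KRT81 it was 0.89 ± 0.06, for KRT8 0.73 ± 0.05 and for KRT18 0.51 ± 0.05. KRT80 had a difference of 1.18 ± 0.12. KRT17 rose in both lines and by less in NCI-H1944, a difference of -0.94 ± 0.14 (edgeR adjusted p = 1.51e-05). For KRT6A it was 1.64 ± 0.57 (edgeR adjusted p = 0.0258), a call lost in 6 of 12 alternatives, with an adjusted p of up to 0.121 (without NCI-H647 MPS1i replicate 2).

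Beyond the 10 genes, 45 other keratin genes were listed in each line and held little of the keratin level. The 10 genes held 99.2% to 99.3% of it in NCI-H1944 and 96.1% to 96.9% in NCI-H647. In NCI-H1944 9 of the 45 were tested, of which 4 rose, 1 fell and 4 were not called, beside 13.6% of all genes called higher and 12.4% lower. KRT34, a type I hair keratin, had 176 and 170 counts after MPS1i, against 65 and 69 with DMSO (log2 fold change 1.23 ± 0.20, edgeR adjusted p = 1.76e-04). KRT15 of basal cells (1.57 ± 0.44), KRT2 of upper epidermis and KRT16, a wound keratin (0.71 ± 0.23), were also called higher, and KRT10 of differentiating epidermis lower (-0.21 ± 0.07). KRT2 had 20 and 22 counts after MPS1i, against 6 and 0 with DMSO, and its log2 fold change of 2.62 ± 0.80 was 1.65 and not called (edgeR adjusted p = 0.155) without DMSO replicate 2. These last 4 calls were lost in 3 to 5 alternatives each, and DESeq2 called 2 of the 9 higher and 0 lower. In NCI-H647 5 of the 45 were tested, of which KRT79 (2.71 ± 0.56, 10 and 11 counts after MPS1i, against 2 and 2 with DMSO) and KRT10 (0.18 ± 0.07) were called higher, beside 27.3% of all genes. KRT79 here, like KRT2 in NCI-H1944, passed the low-count filter through its MPS1i libraries alone, so neither could be called lower. KRT10 lost the call in 5 of 9 alternatives, among them leaving out DMSO replicate 1, DMSO replicate 2 or MPS1i replicate 1, with an adjusted p of up to 0.480 (DESeq2). None of the 5 was called lower, also at an unadjusted p under 0.05, and DESeq2 called none in either direction.

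Desmosomes and plakins, which anchor keratin filaments at the membrane, were followed as a list. In NCI-H1944 5 of 17 tested genes rose and 1 fell (median log2 fold change 0.01), beside 13.6% and 12.4% of all genes. In NCI-H647 4 of 17 rose and 5 fell (median -0.04), near the 27.3% and 27.0% of all genes. DSP (desmoplakin), which ties keratins to the desmosome, rose in both lines. It had 298 and 285 CPM after MPS1i, against 163 and 160 CPM with DMSO, in NCI-H1944 (log2 fold change 0.85 ± 0.03, edgeR adjusted p = 9.95e-12). DSP in NCI-H647 had 40.9 and 42.5 CPM after MPS1i, against 19.7 and 18.9 CPM with DMSO (1.11 ± 0.06, edgeR adjusted p = 1.34e-09). JUP (plakoglobin) rose by 0.27 ± 0.04 in NCI-H1944 and by 0.71 ± 0.05 in NCI-H647. DST (dystonin), a plakin of hemidesmosomes and of other cytoskeletal links, rose by 0.21 ± 0.04 in NCI-H1944 and fell in NCI-H647 (-0.28 ± 0.03).

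Among other intermediate filament genes, VIM (vimentin), the filament of mesenchymal cells, fell in NCI-H647, as KRT7, KRT8 and KRT18 did. It had 1920 and 1972 CPM after MPS1i, against 2678 and 2728 CPM with DMSO (log2 fold change -0.47 ± 0.03, edgeR adjusted p = 1.57e-09). Of 6 tested genes of that list in NCI-H647, 3 fell and 1 rose (median -0.39), beside 27.0% and 27.3% of all genes. SYNM (synemin) was lower by -0.36 ± 0.07 and INA (alpha-internexin) higher by 0.41 ± 0.07. In NCI-H1944 1 of 6 was called, DES (desmin), at 1.15 ± 0.33 with 20 to 76 counts per library and lost in 4 of 9 alternatives. VIM was not called there (log2 fold change -0.04).

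Of basal and squamous genes other than keratins, 4 of 13 tested rose and 2 fell in NCI-H1944 (median -0.01), beside 13.6% and 12.4% of all genes. In NCI-H647 2 of 14 rose and 3 fell (median -0.06), at or under the 27.3% and 27.0% of all genes. LAMB3, a laminin chain of the basement membrane, rose in both lines, by 0.43 ± 0.03 in NCI-H1944 and 1.96 ± 0.05 in NCI-H647. Integrin ITGB4, of hemidesmosomes, fell in NCI-H1944 (-0.28 ± 0.03), and its partner ITGA6 fell in NCI-H647 (-0.94 ± 0.04).

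Genes of cornification and barrier defence were called in 1 direction. In NCI-H1944 8 of 13 tested rose and 0 fell (median 0.73), beside 13.6% and 12.4% of all genes, with 9 higher and 0 lower at an unadjusted p under 0.05 and 6 and 0 by DESeq2. TGM2, a transglutaminase, rose by 0.80 ± 0.03, KLK10, a secreted protease, by 1.76 ± 0.11 and LCN2 (lipocalin-2) by 0.73 ± 0.07. In NCI-H647 5 of 8 rose and 0 fell (median 1.62), beside 27.3% and 27.0% of all genes, with 5 and 0 both at an unadjusted p under 0.05 and by DESeq2. The elastase inhibitor PI3 had 183 and 190 counts there after MPS1i, against 3 and 0 with DMSO, and LCN2 had 30 and 33, against 1 and 0 with DMSO. PI3 and LCN2 passed the low-count filter through their MPS1i libraries alone, so neither could be called lower. Both count in the 5 and in the median, and 12 of the 20 genes listed were not tested in NCI-H647. TGM2 rose by 0.42 ± 0.05 in NCI-H647. Keratinocyte cornification is the setting in which this list is usually read, and TGM2 and LCN2 are expressed in many other cell types.

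Glandular lung genes were called higher more often than lower, on few genes. In NCI-H1944 4 of 11 tested rose and 1 fell (median 0.27), beside 13.6% and 12.4% of all genes, among them the adhesion molecules CEACAM6 (0.60 ± 0.03) and CEACAM5 (1.39 ± 0.15). In NCI-H647 4 of 5 rose and 0 fell (median 0.87), beside 27.3% and 27.0% of all genes, with 4 and 0 at an unadjusted p under 0.05 and 2 and 0 by DESeq2. ELF3, an epithelial ETS factor, had 5.30 and 6.35 CPM after MPS1i, against 0.365 and 0.649 CPM with DMSO, in NCI-H647 (3.52 ± 0.31). It rose by 0.17 ± 0.04 in NCI-H1944. In NCI-H647 ELF3 passed the low-count filter through its MPS1i libraries alone, so it could not be called lower there.

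Transcription factors known to act on keratin genes were called higher more often than lower in both lines. In NCI-H1944 10 of 18 tested rose and 0 fell (median 0.21), beside 13.6% and 12.4% of all genes, with 11 and 0 at an unadjusted p under 0.05 and 10 and 0 by DESeq2. In NCI-H647 13 of 16 rose and 1 fell (median 0.57), beside 27.3% and 27.0% of all genes. AP-1 subunits were among the genes with the smallest adjusted p. JUN rose by 0.95 ± 0.05 and FOSB by 2.55 ± 0.25 in NCI-H1944, and JUNB rose by 1.54 ± 0.05, FOSB by 3.10 ± 0.15 and FOSL1 by 0.86 ± 0.04 in NCI-H647. KLF4, a factor of epithelial differentiation, had 160 and 169 CPM after MPS1i, against 115 and 114 CPM with DMSO, in NCI-H1944 (0.52 ± 0.04).

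**Figure D4:**
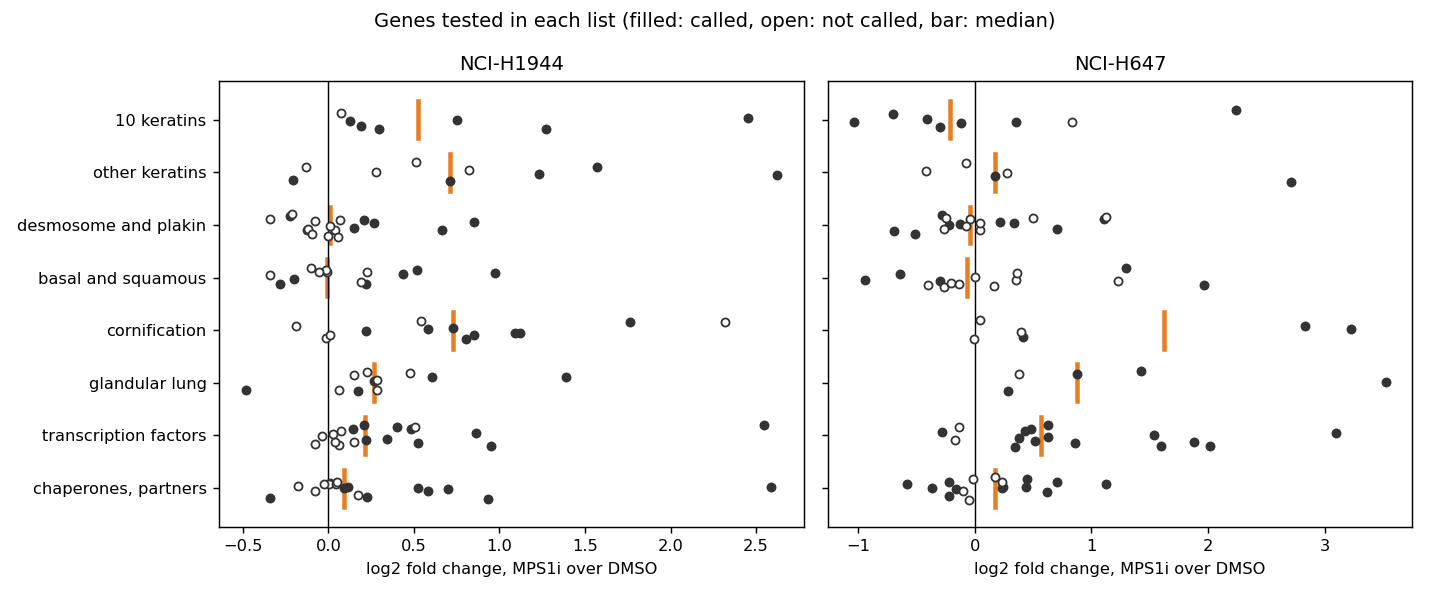
Log2 fold change of MPS1i over DMSO (horizontal axis, scales differ between the lines) for each tested gene of 8 groups, with the group median as a bar. The transcription factors lie mostly above 0 in both lines and the desmosome genes on both sides of it. Genes with at most 3 counts over a group (KRT14 in NCI-H1944, PI3 and LCN2 in NCI-H647) are in the medians but not drawn. They passed the low-count filter through their MPS1i libraries alone.

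Chaperones, kinases, caspases and ligases that act on keratins were followed as well. In NCI-H1944 8 of 17 tested rose and 1 fell (median 0.09), beside 13.6% and 12.4% of all genes. In NCI-H647 7 of 17 rose and 5 fell (median 0.17), beside 27.3% and 27.0% of all genes. DNAJA1, an HSP70 co-chaperone, rose in both lines, by 0.58 ± 0.03 in NCI-H1944 and 0.70 ± 0.04 in NCI-H647. TRIM21, a ubiquitin ligase and cytosolic antibody receptor, had 53.0 and 55.8 CPM after MPS1i, against 9.73 and 8.38 CPM with DMSO, in NCI-H1944 (2.59 ± 0.08). In NCI-H647 SQSTM1 (p62), which gathers misfolded protein, rose by 0.44 ± 0.03 and MAP2K1 by 0.62 ± 0.05.

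Markers of other cell types moved with the keratins in part. Summed over 8 epithelial markers, the level was 97.0 to 100.0 CPM after MPS1i, against 74.4 to 76.6 CPM with DMSO, in NCI-H1944, and 16.9 to 17.0 CPM, against 15.7 to 15.9 CPM, in NCI-H647. CLDN4 was the single call in each line, at 0.64 ± 0.06 in NCI-H1944 and 0.40 ± 0.15 in NCI-H647, where it was lost in 7 of 9 alternatives. It had 7.26 and 7.08 CPM after MPS1i, against 5.48 and 5.37 CPM with DMSO, in NCI-H647. The median log2 fold change was 0.22 over the 6 epithelial markers tested in NCI-H1944. Over the 4 tested in NCI-H647 it was -0.15, and DESeq2 called 0 there in either direction. Summed over 9 leukocyte and erythroid markers it was 167 to 171 CPM after MPS1i, against 73.1 to 76.8 CPM with DMSO, in NCI-H1944, and 226 to 227 CPM, against 149 to 150 CPM, in NCI-H647. CD68, a lysosomal protein of macrophages and other cells, made up nearly all of both sums and rose in both lines. It had 162 and 165 CPM after MPS1i, against 69.4 and 72.1 CPM with DMSO, in NCI-H1944, and rose by 0.59 ± 0.04 in NCI-H647. Of this list 3 of 5 tested rose and 0 fell in NCI-H1944, beside 13.6% and 12.4% of all genes, with 3 and 0 at an unadjusted p under 0.05 and 2 and 0 by DESeq2. LYZ, 1 of the 3, passed the low-count filter in NCI-H1944 through its MPS1i libraries alone, so it could not be called lower. HBA1, a haemoglobin chain, rose there by 1.33 ± 0.35, and LYZ (lysozyme) had 17 and 33 counts after MPS1i, against 0 and 5 with DMSO, and each lost its call in 2 alternatives. In NCI-H647 both tested genes rose, beside 27.3% of all genes, and CD14, a monocyte receptor, had 30 and 31 counts after MPS1i, against 11 and 12 with DMSO (1.80 ± 0.34, edgeR adjusted p = 3.94e-04). CD3E of T cells had 0 to 2 counts per library in both lines, and 2 of the 9 were listed at 0 in every NCI-H1944 library. Summed over 9 fibroblast and endothelial markers it was 47.8 to 48.3 CPM after MPS1i, against 30.5 to 34.2 CPM with DMSO, in NCI-H1944, and 51.1 to 55.7 CPM, against 63.6 to 69.5 CPM, in NCI-H647. Of those 9, 4 were tested in NCI-H1944 and all 4 rose, beside 13.6% of all genes. LUM (lumican) had 834 and 745 counts after MPS1i, against 520 and 421 with DMSO (0.61 ± 0.10), and DCN (decorin) had 907 and 913, against 632 and 559 (0.47 ± 0.08). COL1A1 rose by 0.59 ± 0.14, a call lost in 2 of 9 alternatives. At an unadjusted p under 0.05, 4 of these markers were higher and 0 lower in NCI-H1944, with 3 and 0 by DESeq2. In NCI-H647 6 were tested, of which 3 fell, COL1A2 (-0.74 ± 0.11), CDH5 of endothelium (-0.39 ± 0.08) and COL1A1 (-0.25 ± 0.10), the last lost in 5 of 9 alternatives. None rose by edgeR, with 1 higher and 3 lower at an unadjusted p under 0.05 and 0 and 2 by DESeq2. COL3A1 had 1 to 6 counts per library in both lines. The part of these markers in the keratin results was not tested.

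The genes whose pattern over the 8 libraries was most like that of each keratin were found by the Euclidean distance between gene-centred log2 CPM, among 12873 genes tested in both lines. These distances are descriptions and rest mostly on the level in each line, which carries the kits. For KRT8, TNS4 (distance 0.358) was among the nearest, and for KRT18 the nearest were SLC2A1 (0.163) and ZNF542P (0.226). ADGRG6 (0.158) and PARP1 (0.162) were nearest to KRT7, and FN1 (0.355) and CDH2 (0.513) to KRT81. EEF1A1P6 (0.617) and MAP2K6 (0.654) were nearest to KRT80, at a greater distance. KRT17 had KLF4 (0.882) and CXCL16 (1.3), and KLF4 rose by 0.52 in NCI-H1944 and 2.02 in NCI-H647. KRT6A had no close match, with DDO at 1.14 and PNPT1 at 1.15.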

How the data were processed

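RNA was sequenced from 8 libraries, 4 of NCI-H1944 and 4 of NCI-H647. The authors deposited 1 table for each line, which holds whole-number counts of each gene, not normalized as far as the values show. Per the labels' protocols, a stranded poly(A) kit was used for NCI-H1944, and ribosomal RNA removal followed by a stranded kit for NCI-H647. The submitters' processing notes list HISAT2, STAR, StringTie, featureCounts, Trimmomatic, Trim Galore and cutadapt with GRCh38. Versions, roles and whether counting used strand were not given in the sources used here.

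Samples were grouped by title, and columns were matched to samples by name. In R 4.3.3 each line was fitted alone with edgeR 4.0.16: filterByExpr (minimum count 10, minimum total 15), TMM scaling, the quasi-likelihood test of MPS1i against DMSO, and Benjamini-Hochberg adjustment over all genes tested, with a threshold of 0.05. CPM values are scaled by TMM. Each SE was computed as the log2 fold change divided by the root of its F statistic. The lines were compared by fitting all 8 libraries together and testing the line-by-treatment interaction. DESeq2 1.42.0, other filters and scalings, leaving out each library and a replicate block were alternatives. The fits were tested on simulated counts.

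The members and the 13 further gene lists were chosen with earlier results of these data known. All 10 keratins are named, as are other keratins that were called, per line up to 3 genes per list by smallest adjusted p, TTK, and the 2 genes most like each keratin tested in both lines. KRT86, KRT6B, KRT6C, CD3E, CDH1, EPCAM, COL3A1 and VIM in NCI-H1944 were named outside that rule after their values were seen. Transcript lengths, coding lengths and sequences are those of GENCODE 29 (GRCh38). The biological coefficient of variation was 3.99% in NCI-H1944 and 3.54% in NCI-H647. Of 149 keratin pseudogenes, 7 were tested in NCI-H1944 (2 higher, 0 lower, the same counts at an unadjusted p under 0.05, and 0 in either direction by DESeq2) and 3 in NCI-H647 (1 lower). Of 3 keratin antisense genes, 1 was tested in each line and neither was called, also at an unadjusted p under 0.05 and by DESeq2. Some genes and sequences that these rules would name are not reported here.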

Additional observations from a re-analysis of the deposited data

Results flagged for a closer look

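The response to MPS1i differed between NCI-H1944 and NCI-H647 for 9 keratin genes, by the test of that difference in the joint fit. Each value is the log2 response in NCI-H1944 minus that in NCI-H647. It was 0.79 for KRT7, 0.73 for KRT8, 0.51 for KRT18, 0.89 for KRT81, 1.18 for KRT80 and 1.64 for KRT6A, all higher in NCI-H1944. It was -0.94 for KRT17, which rose in both lines. Outside the 10 genes it was 0.61 for KRT86 (edgeR adjusted p = 0.00264), which was called in neither line alone, and -0.36 for KRT10 (edgeR adjusted p = 0.00534), which lost the call without NCI-H647 MPS1i replicate 1 (edgeR adjusted p = 0.0526). Of all genes tested, 40.1% were called different between the lines. The lines also differ in kit and in table, and the part of these in the differences cannot be told apart from that of the line.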

How the results depend on the processing

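Genes named in the 3 comparisons were counted once per comparison, which gave 90 pairs of a gene and a comparison. Over these, 843 values under other settings were computed, of which 781 kept direction and call, 58 lost the call and 3 gained it. For the 10 keratins 218 of 231 kept both. Settings in which a gene was not tested or had no adjusted p are not in these totals. KRT14 in NCI-H1944 so had 7 settings in place of 9, without the minimum count of 50 and DESeq2. TTK reversed in the difference between the lines, which was not called (0.04), at -0.000216 without NCI-H1944 MPS1i replicate 1, and ran up to 0.0764 when other libraries were left out. Without a low-count filter NCI-H1944 had 2325 calls (1319 higher, 1006 lower), against 4346 (2271, 2075). With DESeq2 NCI-H647 had 4695 (2122 higher, 2573 lower), against 8184 (4114, 4070), and the cause was not tested. The keratins called higher in NCI-H647 were 1 in place of 2 without the filter and with DESeq2, and 1 to 2 over the fits that left out 1 library. KRT19 lost its call in 3 of those 4 fits, and without MPS1i replicate 2 the count stayed at 2 because KRT6A was called in its place. Summed CPM of the 10 genes with DMSO was 4565 on plain totals, against 4549, in NCI-H1944 and 2317, against 2359, in NCI-H647. With the replicate number as a block, NCI-H1944 had 4817 calls, NCI-H647 8434 and the difference between the lines 5208, and no keratin among the 10 changed its call. The labels give replicates only a number. Deviations of same-numbered libraries correlated at 0.0440 in NCI-H1944 and 0.00257 in NCI-H647, which cannot tell whether they were also paired in culture or preparation. The median log2 fold change of all genes ran from -0.0133 to 0.00537 under the scalings tried. Depth limits what can be said of KRT5, KRT14 and KRT6A.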
